A study of Mus musculus with 6 samples.

Results

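Levels of 46 genes of histone and DNA modifying enzymes and of the corepressors that work with them were compared between Blimp1-deficient (CKO) and Blimp1-sufficient (Ctrl) pTreg cells, regulatory T cells that arose in the periphery from transferred naive cells. The genes were taken by name, with current and older symbols, and each was read from its brightest probe over the 6 arrays. Of the 46 genes, out of 19057 with a named probe, 43 had a named probe and 38 had one above background on at least 2 arrays. Hdac1, Suv39h1 and Tet2 had no named probe in the annotation used here, and no probe of Hdac9, Suv39h2, Kat2b, Dnmt3a or Tet1 was above background on 2 arrays.

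The CKO cells came from Blimp1CKO donors, whose genotype is C57BL/6 Prdm1flox/flox CD4-Cre+, and the Ctrl cells from Prdm1+/+ CD4-Cre+ donors. Both groups therefore carry CD4-Cre, which acts in all T cells from the thymus onwards, and both carry a Foxp3-GFP reporter. Naive Foxp3-GFP- CD4+ cells of both donors were mixed in equal parts and injected together into RAG1-/- mice, which have no T or B cells of their own, and Foxp3-GFP+ cells were sorted several weeks later on different Thy1 alleles, Thy1.2 for CKO and Thy1.1 for Ctrl cells. The age of the mice is not in the labels, whose fields call the cells iTreg in one place and peripheral Treg cells in another and add P+I to the names of replicates 2 and 3 but not to those of replicate 1. RNA of 3 CKO and 3 Ctrl samples, which the methods call biological replicates, was hybridized to Illumina MouseWG 6v2 bead arrays, and the number of arrays limits the precision.

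Blimp1, the zinc finger protein encoded by Prdm1, is known to repress genes by bringing chromatin-modifying enzymes to them. Histone deacetylases, the histone H3 lysine 9 methyltransferase G9a, the demethylase LSD1, the arginine methyltransferase Prmt5, the Polycomb repressive complex 2 and Groucho proteins have each been described as partners of Blimp1 in other cell types. In regulatory T cells, enzymes of these classes act with Foxp3 on its targets, and DNA demethylation at the Foxp3 locus accompanies a stable regulatory state.

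Intensities are linear, background-subtracted values after quantile normalization over the 6 arrays, and an array's background, 6.18 to 9.55 intensity units, was set at the 95th percentile of its 1504 probes for olfactory or vomeronasal receptors. Log2 fold changes are CKO over Ctrl from limma, after values under background had been raised to it, and adjusted p-values are over 9593 genes. Prdm1 itself gave 561, 341 and 704 in CKO replicates 1, 2 and 3, against 18.9, 50.9 and 49.2 in the Ctrl replicates. Since no source used here places this probe relative to the floxed exons, the deletion cannot be checked with it. Il10, a gene that Blimp1 is known to activate, gave 128, 99.2 and 106 in CKO, against 5935, 3203 and 5904 in Ctrl cells (adjusted p = 0.0010). Foxp3 gave 433, 165 and 216 in CKO, against 480, 212 and 141 in Ctrl cells.

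No member passed an adjusted p of 0.05 in limma, which 26 of the 9593 genes (0.271%) did, 15 of them lower (0.156%) and 11 higher (0.115%) in CKO cells, and the lowest adjusted p of a member was 0.39. At the thresholds of the study, which ask for a change of 1.5-fold or more with an unadjusted p under 0.05, 4 of the 38 measured members were lower in CKO cells (10.5%) and 0 were higher, beside 4.34% of all genes lower and 3.09% higher. With the replicate number as a block the same 4 members were lower, beside 7.28% of all genes, and 1 member, Ehmt1, was higher, beside 4.75%. The 4 were the class II deacetylases Hdac5 and Hdac7, the H3 lysine 4 methyltransferase Kmt2a and the H3 lysine 4 demethylase Kdm5c, which passed the filter on dim probes only through its Ctrl arrays and so had to be lower. At an unadjusted p under 0.05 alone, 5 members were lower and 0 higher, against 4.7% and 3.36% of all genes, the fifth being the acetyltransferase Ep300. In the same 5 genes no CKO array reached the lowest Ctrl array (13.2%, beside 7.08% of all genes), and in Dnmt3b and Tle4 no Ctrl array reached the lowest CKO array (5.26%, beside 5.95% of all genes). Kdm5c counts toward each of the lower shares. Its Ctrl replicate 3 was below background, so there only the backgrounds of the arrays kept it apart from the CKO arrays. These shares rest on 2 to 5 genes each, and 0 members passed an adjusted p also with the replicate number or the slide as a block. In limma with the replicate block, the unadjusted and adjusted p were 0.0047 and 0.10 for Kmt2a and 0.013 and 0.17 for Hdac5. They were 0.017 and 0.20 for Ep300, 0.025 and 0.23 for Hdac7, and 0.021 and 0.21 for Kdm5c.

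The log2 fold change was below 0 in 18 of the 38 members and above 0 in 20, beside 4567 below and 5026 above among all 9593 genes. The median of the members was 0.01, beside 0.02 over all genes. Within the 3 pairs of arrays that share a replicate number the median of the members was -0.08, 0.01 and -0.07, beside 0.07, 0.04 and -0.07 over all genes. In every pair 11 members were lower in CKO cells (28.9%, beside 18.1% of all genes), namely Hdac4, Hdac5, Hdac7, Ehmt2, Eed, Kmt2a, Dot1l, Kdm2b, Kdm5c, Ep300 and Tet3. Kdm5c and Tet3 are in this count because they passed the filter only through Ctrl arrays, and in replicate 3, where both of their arrays were dim, their difference is only that between the backgrounds of the arrays. In every pair 3 members, Ehmt1, Dnmt3b and Tle4, were higher (7.89%, beside 19.5% of all genes).

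**Figure D1:**
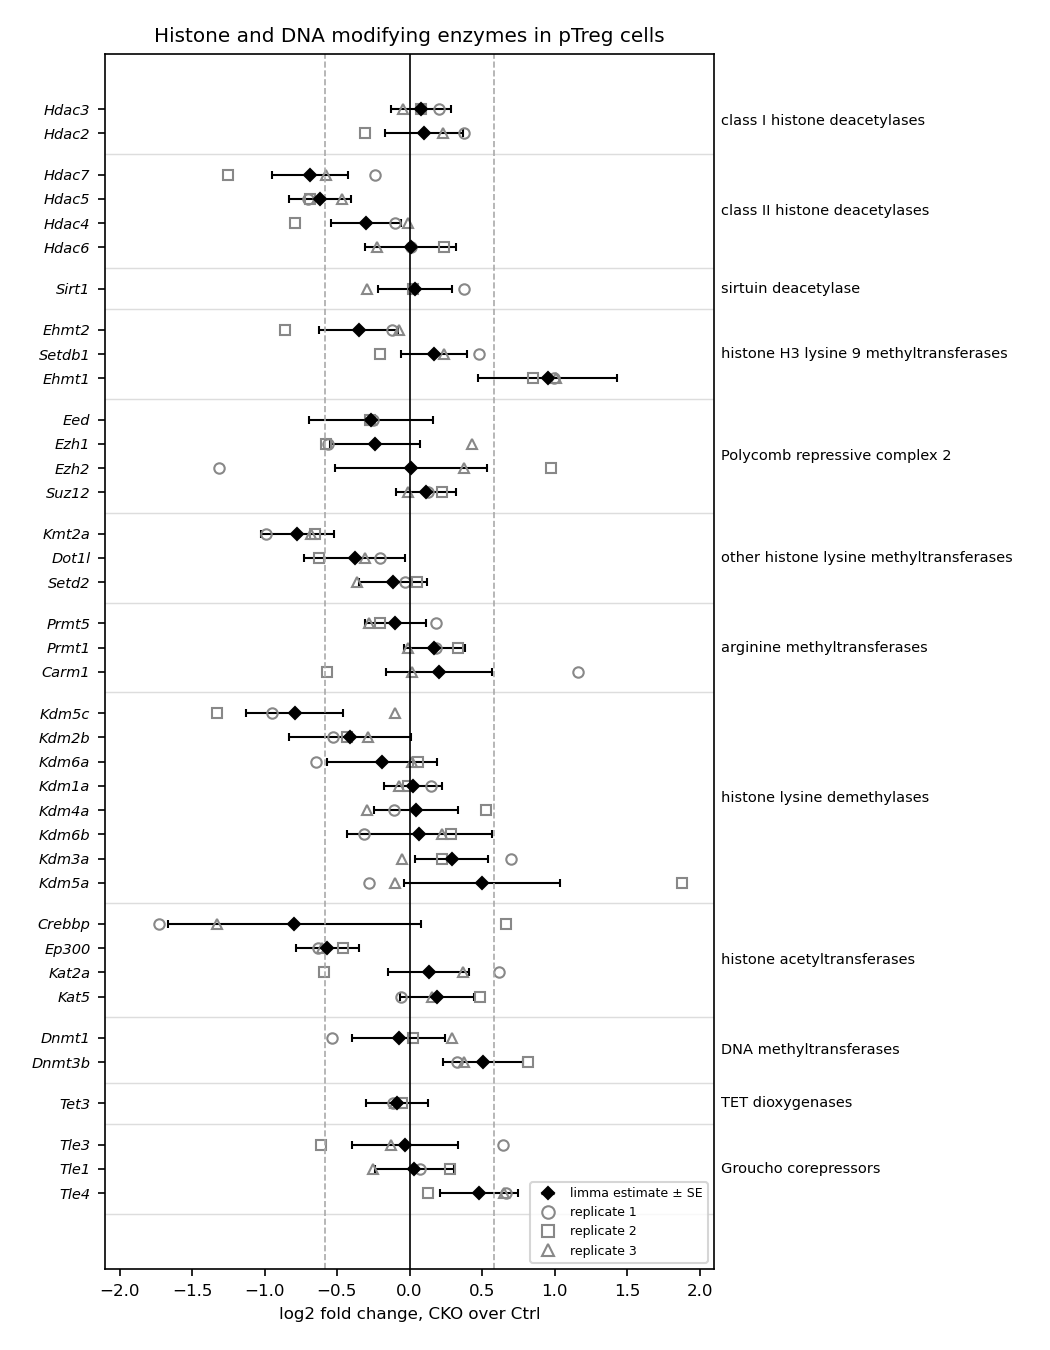
Log2 fold change, CKO over Ctrl, of the 38 measured members, grouped by class. Diamonds with bars give the limma estimate ± SE from 3 arrays per genotype, open symbols give each pair of arrays, and dashed lines mark 1.5-fold. Hdac4, Hdac5, Hdac7, Kmt2a and Dot1l lie left of 0, and most bars of the other classes cross 0.

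Class I histone deacetylases, the catalytic subunits of the SIN3, NuRD and NCoR corepressor complexes, were measured through Hdac2 and Hdac3. Hdac2 gave 691, 661 and 944 in CKO, against 531, 817 and 803 in Ctrl cells, a log2 fold change of 0.10 (SE 0.27, adjusted p = 0.98 in limma). The values of both genotypes overlapped, and the 95% interval of the difference ran from -0.52 to 0.73. Hdac3 gave 796, 689 and 707 in CKO, against 690, 653 and 728 in Ctrl cells. Its log2 fold change was 0.08. Sirt1, a NAD-dependent deacetylase, gave 127, 95.8 and 73.1 in CKO, against 97.5, 94.2 and 89.5 in Ctrl cells, so that the CKO arrays spread more widely around the same level.

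Class II deacetylases shuttle between nucleus and cytoplasm and act as corepressors with MEF2 and other factors. The 4 measured had a median log2 fold change of -0.46, and 3 of them were below 0, beside 4567 of all 9593 genes. Hdac5 gave 36.4, 43.1 and 41.0 in CKO, against 59.2, 69.3 and 56.6 in Ctrl cells. The groups did not overlap, and the level was 1.53-fold lower in CKO cells (log2 fold change -0.62, SE 0.21, unadjusted p = 0.020, adjusted p = 0.42 in limma). Within pairs the log2 difference was -0.70, -0.69 and -0.46. The 2 other kept probes of Hdac5 had log2 fold changes of -0.70 and -0.57, and the brighter of these gave 22.3, 28.0 and 23.7 in CKO, against 39.8, 42.5 and 37.3 in Ctrl cells. Without CKO replicate 1 or Ctrl replicate 2, Hdac5 no longer met the study thresholds (log2 fold changes of -0.55 and -0.53).

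Hdac7, a class II deacetylase known for its role in developing T cells, gave 380, 318 and 404 in CKO, against 448, 756 and 601 in Ctrl cells. Again no CKO array reached a Ctrl array, but the pairs differed in size, with log2 differences of -0.24, -1.25 and -0.57. The level was 1.61-fold lower in CKO cells (log2 fold change -0.69, SE 0.26, unadjusted p = 0.031, adjusted p = 0.50 in limma). It has a single probe, and without CKO replicate 1, CKO replicate 2, Ctrl replicate 2 or Ctrl replicate 3 the unadjusted p was 0.057, 0.095, 0.12 and 0.072. Hdac4 gave 81.8, 67.5 and 95.3 in CKO, against 87.5, 117 and 95.9 in Ctrl cells, and it was lower in every pair with overlapping groups. Hdac6, a mostly cytoplasmic tubulin deacetylase, lay between 11.3 and 16.1 in CKO and between 9.60 and 18.8 in Ctrl cells, near background.

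The promoter of Hdac5 is shown because this deacetylase had the closest replicates among the members that met the study thresholds, and because its letters can be searched for the core that Blimp1 recognises. It is read from the RefSeq promoter table of GRCm38.p6 as the 250 bases before the start of the gene, with a match of GAAAG or of the longer AGNGAAAG on either strand in capitals.
Hdac5, chr11:102230173-102230422, minus strand: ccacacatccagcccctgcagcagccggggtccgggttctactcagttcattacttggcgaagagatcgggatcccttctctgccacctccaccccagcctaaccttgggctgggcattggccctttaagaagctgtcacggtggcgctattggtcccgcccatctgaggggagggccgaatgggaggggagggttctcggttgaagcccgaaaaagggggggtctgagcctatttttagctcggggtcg
The window holds neither motif. Of the member genes, 41 matched the table, with 59 windows. GAAAG, which lies within AGNGAAAG, was present on either strand in 17 of these windows (28.8%), beside 51.5% of all 32851 promoter windows. AGNGAAAG was present in 1 (1.69%), beside 7.3% of all windows. The member windows were also richer in G and C, with a median of 65.2%, beside 52.4% of all windows, and held a median of 21 CpG, beside 6. Carm1, Kdm6b, Hdac1, Hdac3 and Kdm5a were not matched.

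Enzymes that methylate histone H3 at lysine 9, a mark of silent chromatin, were read from Ehmt1, Ehmt2 and Setdb1. Ehmt2, which encodes G9a, gave 156, 170 and 189 in CKO, against 170, 307 and 199 in Ctrl cells (log2 fold change -0.35, SE 0.27, adjusted p = 0.88 in limma). All 3 pairs were lower in CKO cells, with most of the difference in replicate 2. Another Ehmt2 probe gave 130, 131 and 134 in CKO, against 192, 209 and 189 in Ctrl cells. On it the groups did not overlap, with a log2 fold change of -0.58 (SE 0.21, adjusted p = 0.51 over all probes in limma).

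Ehmt1 encodes GLP, which forms a heterodimer with G9a. It gave 14.6, 37.9 and 19.3 in CKO, against 7.33, 21.0 and 6.85 in Ctrl cells, of which Ctrl replicate 3 was not above background. The genotypes overlapped because replicate 2 was bright in both, while within pairs the CKO level was higher by 0.85 to 1.01 on the log2 scale. The value of replicate 3, 1.01, was taken against the background of its Ctrl array and is a lower bound only at that level of background. Its log2 fold change, 0.96, was the highest of the members and had an SE of 0.48 (unadjusted p = 0.082, adjusted p = 0.71 in limma). With the replicate number as a block the SE was 0.18 and Ehmt1 met the study thresholds (unadjusted p = 0.0012, adjusted p = 0.057), which brought the members that met them to 5. This SE rests in part on the Ctrl array held at background. In that fit 183 genes (1.91%) passed an adjusted p of 0.05, beside 26 without the block. Ehmt1 met the thresholds also without CKO replicate 1 and without Ctrl replicate 2 (log2 fold changes of 1.25 and 1.40), and without CKO replicate 2 the log2 fold change was 0.56. Setdb1, the methyltransferase that KRAB zinc finger proteins recruit, gave 127, 102 and 131 in CKO, against 91.3, 117 and 111 in Ctrl cells.

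**Figure D2:**
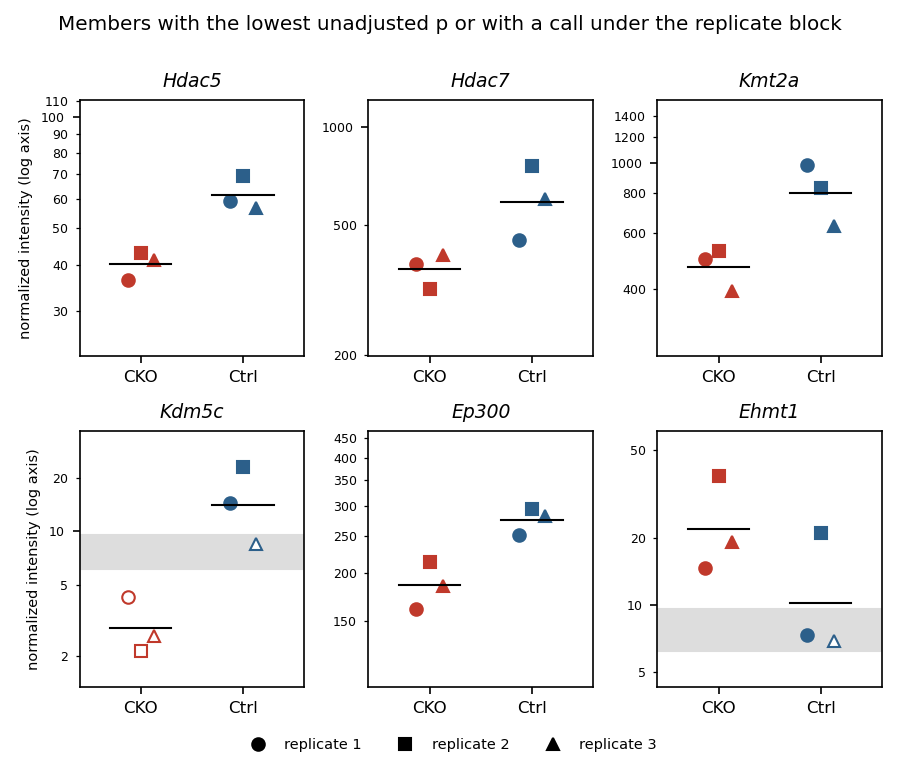
Normalized intensity (log axis) of 6 members in 3 CKO arrays (red) and 3 Ctrl arrays (blue), with the symbol for the replicate and a line for the geometric mean. Filled symbols are above the background of their own array, and grey marks the range of background over the 6 arrays. In Hdac5, Hdac7, Kmt2a, Kdm5c and Ep300 every CKO array is below every Ctrl array, and in Ehmt1 the genotypes overlap.

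Polycomb repressive complex 2 places methyl groups on histone H3 lysine 27 through Ezh2 or Ezh1, held by Eed and Suz12. Suz12 gave 1292, 1487 and 1335 in CKO, against 1183, 1270 and 1346 in Ctrl cells (log2 fold change 0.11, SE 0.21, adjusted p = 0.97 in limma). Eed gave 136, 322 and 255 in CKO, against 162, 389 and 308 in Ctrl cells. It was lower in CKO cells by nearly the same amount in each pair, with log2 differences of -0.25, -0.27 and -0.27, while the replicates of 1 genotype spanned over 1 log2 unit (log2 fold change -0.26, SE 0.43, adjusted p = 0.96). With the replicate number as a block the SE of Eed was 0.18 (unadjusted p = 0.19, adjusted p = 0.53 in limma). Ezh2 gave 96.0, 441 and 182 in CKO, against 239, 224 and 141 in Ctrl cells. Its pairs disagreed in direction, with log2 differences of -1.31, 0.98 and 0.37, and the log2 fold change was 0.01 (SE 0.52, adjusted p = 1.0, 95% interval -1.20 to 1.23). Ezh1 lay between 10.2 and 13.9 in CKO and between 9.94 and 20.7 in Ctrl cells.

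Kmt2a, the trithorax-type methyltransferase of H3 lysine 4 also known as MLL1, had the lowest unadjusted p of all members. It gave 497, 529 and 396 in CKO, against 985, 833 and 634 in Ctrl cells. No CKO array reached a Ctrl array, and the level was 1.71-fold lower in CKO cells (log2 fold change -0.77, SE 0.25, unadjusted p = 0.016, adjusted p = 0.39 in limma). Within pairs the log2 difference was -0.99, -0.65 and -0.68, and another kept probe gave a log2 fold change of -0.79. Without CKO replicate 3 or Ctrl replicate 1 the unadjusted p was 0.059 and 0.051. Kmt2a lies on chromosome 9, where it is the 24th nearest to Thy1 of 547 tested genes, and the donors differed in their Thy1 alleles. Of the 50 tested genes nearest to Thy1, 4 were lower and 4 higher at the study thresholds (16%), 1 of them past an adjusted p of 0.05, beside 7.42% of all genes. Whether the origin of the chromosome bears on Kmt2a was not tested.

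The promoter of Kmt2a, in the same table and build, is shown beside this result. It has 76.8% G and C and 29 CpG in 250 bases, and neither motif.
Kmt2a, chr9:44881290-44881539, minus strand: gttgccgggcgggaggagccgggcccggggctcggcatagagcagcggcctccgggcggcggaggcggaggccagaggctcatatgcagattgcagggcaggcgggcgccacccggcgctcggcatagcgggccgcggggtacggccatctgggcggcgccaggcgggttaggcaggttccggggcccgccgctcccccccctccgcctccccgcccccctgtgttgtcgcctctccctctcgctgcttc

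Of the other lysine methyltransferases, Dot1l, which methylates H3 lysine 79, gave 513, 367 and 260 in CKO, against 590, 566 and 322 in Ctrl cells. It was lower in CKO cells in all pairs, by less than the spread between replicates (log2 fold change -0.38). Setd2, which methylates H3 lysine 36 in transcribed genes, gave 231, 309 and 243 in CKO, against 237, 299 and 311 in Ctrl cells, and its 2 other kept probes had log2 fold changes of 0.33 and 0.25. Among the arginine methyltransferases, Prmt5, which places symmetric dimethyl marks, gave 847, 780 and 730 in CKO, against 747, 897 and 885 in Ctrl cells. The groups overlapped (log2 fold change -0.10, SE 0.21, adjusted p = 0.98 in limma). Both of the other kept Prmt5 probes went in the other direction. The brighter gave 589, 1074 and 921 in CKO, against 586, 808 and 806 in Ctrl cells (log2 fold change 0.20). The dimmer gave 116, 97.2 and 88.1 in CKO, against 91.3, 50.8 and 53.0 in Ctrl cells (log2 fold change 0.67, SE 0.29). Prmt1, the main enzyme of asymmetric dimethylation, gave 4700, 4397 and 4196 in CKO, against 4132, 3488 and 4216 in Ctrl cells. Carm1 gave 101, 48.7 and 45.2 in CKO, against 45.1, 72.3 and 44.7 in Ctrl cells, so that CKO replicate 1 alone stood above the rest.

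Histone lysine demethylases had a median log2 fold change of 0.03 over 8 members. Kdm1a, which encodes LSD1, the demethylase of H3 lysine 4 in the CoREST complex, gave 851, 775 and 763 in CKO, against 767, 781 and 802 in Ctrl cells. It was among the steadiest members, with a log2 fold change of 0.02 (SE 0.20, adjusted p = 0.99 in limma, 95% interval -0.44 to 0.49). Kdm5c, an X-linked H3 lysine 4 demethylase, gave 4.26, 2.14 and 2.57 in CKO, against 14.5, 23.0 and 8.49 in Ctrl cells. No CKO array and 2 of 3 Ctrl arrays were above background, so the gene entered the test only through its Ctrl arrays and its fold depends on where background is set. Measured log2 values in Ctrl, with replicate 3 itself below background, against the background of each CKO array gave 1.66-fold lower in CKO cells. The log2 fold change was -0.79 (SE 0.33, unadjusted p = 0.046, adjusted p = 0.59 in limma), and -0.35 with background at the 99th percentile. Kdm5c kept the study thresholds without Ctrl replicate 3 (log2 fold change -1.10, unadjusted p = 0.0081) and lost them without any of the other 5 arrays.

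The promoter of Kdm5c differs in composition from those above, with 43.6% G and C, and holds a GAAAG core, which reads CTTTC on the strand shown and stands in capitals.
Kdm5c, chrX:152232977-152233226, plus strand: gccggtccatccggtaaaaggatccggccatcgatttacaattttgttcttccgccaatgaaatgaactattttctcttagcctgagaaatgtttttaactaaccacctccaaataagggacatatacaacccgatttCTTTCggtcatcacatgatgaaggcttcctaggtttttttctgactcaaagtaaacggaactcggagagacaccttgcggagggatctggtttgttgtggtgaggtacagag

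Kdm2b, which demethylates H3 lysine 36 and recruits a variant Polycomb complex to CpG islands, gave 327, 207 and 148 in CKO, against 471, 279 and 180 in Ctrl cells. It was lower in every pair, and each of its 5 kept probes had a log2 fold change below 0, namely -0.41, -0.53, -1.01, -0.08 and -0.45. These probes measure the same 6 RNA samples and are not replicates. Kdm3a, a demethylase of H3 lysine 9, gave 492, 358 and 290 in CKO, against 303, 306 and 301 in Ctrl cells, and its kept probes had log2 fold changes of 0.29, 0.36 and 0.75. Kdm6b, which encodes the H3 lysine 27 demethylase JMJD3, gave 875, 765 and 368 in CKO, against 1087, 626 and 315 in Ctrl cells. Here replicate 3 was dim in both genotypes, and the difference between genotypes (log2 fold change 0.07) was far smaller than that between replicates. Kdm4a and Kdm5a were above background on 4 arrays each, and a log2 fold change of 0.50 in Kdm5a came from CKO replicate 2, with 39.8 there, against 8.07 and 9.95 on the other CKO arrays and 3.57 to 12.1 in Ctrl cells.

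Kdm6a, the X-linked H3 lysine 27 demethylase UTX, which is known to escape X inactivation in mice, gave 256, 451 and 216 in CKO, against 401, 433 and 214 in Ctrl cells. Its level differed between replicates by over 1 log2 unit in both genotypes. Xist, which female cells express from the inactive X chromosome, gave 106, 328 and -4.85 in CKO, against 323, 343 and -4.80 in Ctrl cells. It was below background in both arrays of replicate 3, and within replicate 1 it was lower in CKO than in Ctrl cells. The Y-linked Eif2s3y gave 124, -4.50 and 194 in CKO, against 41.9, -1.17 and 226 in Ctrl cells. The arrays with the most Xist, both of replicate 2 and Ctrl replicate 1, were also those with the most Kdm6a, and another Kdm6a probe gave 146, 364 and 179 in CKO, against 252, 283 and 158 in Ctrl cells. The part of donor sex in the Kdm6a and Kdm5c values was not tested.

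**Figure D3:**
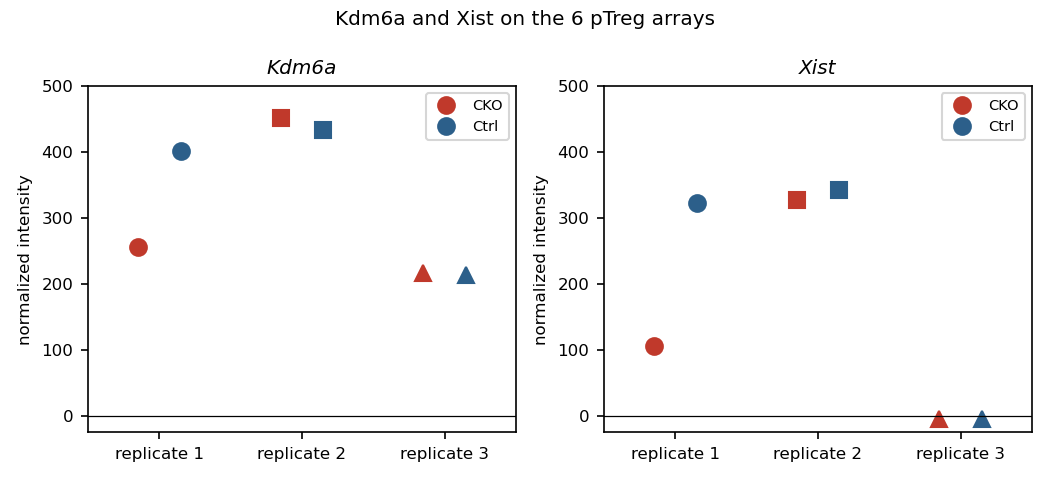
Normalized intensity (linear axis) of Kdm6a and Xist on each array, by replicate, with CKO in red and Ctrl in blue. Xist is at 0 or below in both arrays of replicate 3, where Kdm6a gave 216 in CKO and 214 in Ctrl cells, and in replicate 1 both genes are lower in CKO.

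Ep300 and Crebbp encode the paired acetyltransferases p300 and CBP, which mark active enhancers. Ep300 gave 162, 214 and 186 in CKO, against 251, 294 and 282 in Ctrl cells, on the 1 probe kept of the 4 named. The groups did not overlap, and the level was 1.48-fold lower in CKO cells, just under the fold of the study (log2 fold change -0.57, SE 0.22, unadjusted p = 0.033, adjusted p = 0.51 in limma), with log2 differences of -0.63, -0.46 and -0.60 within pairs. Without CKO replicate 2 or Ctrl replicate 1 it met both thresholds (log2 fold changes of -0.67 and -0.63). Crebbp gave 15.2, 107 and 6.27 in CKO, against 50.2, 67.5 and 22.3 in Ctrl cells. CKO replicate 3 was not above background, and with it at background the CKO arrays spanned 3.59 log2 units. The log2 fold change was -0.80 (SE 0.87), or -1.86 without CKO replicate 2 (unadjusted p = 0.0085). Another Crebbp probe, above background on all 6 arrays, had a log2 fold change of -0.64 (SE 0.69). Kat2a and Kat5 overlapped between genotypes, with log2 fold changes of 0.13 and 0.19. Kat2b was above background on 1 array at most with any probe.

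DNA methylation is kept through cell division by Dnmt1 and set anew by Dnmt3a and Dnmt3b. Dnmt1 gave 122, 179 and 273 in CKO, against 177, 176 and 223 in Ctrl cells, with a log2 fold change of -0.07. Dnmt3b gave 342, 587 and 352 in CKO, against 272, 333 and 271 in Ctrl cells. Every CKO array was above every Ctrl array (log2 fold change 0.51, SE 0.28, unadjusted p = 0.10, adjusted p = 0.74). With the replicate number as a block the SE of Dnmt3b was 0.20 (unadjusted p = 0.038, adjusted p = 0.28 in limma), and its 1.42-fold stayed under the fold of the study. A further probe of Dnmt3b was on no array above background, and no probe of Dnmt3a was either. Tet3, an enzyme that oxidizes methylcytosine, was above background on 2 Ctrl arrays, at 8.12 and 9.48, and on no CKO array, where it gave -0.64, 2.47 and 0.43.

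Groucho proteins are corepressors without enzyme activity that bring deacetylases to the factors they bind. Tle4 gave 311, 289 and 447 in CKO, against 196, 265 and 285 in Ctrl cells. It was higher in every CKO array than in any Ctrl array, by less than the test requires (log2 fold change 0.48, SE 0.27, unadjusted p = 0.11, adjusted p = 0.75). With the replicate number as a block the SE of Tle4 was 0.20 (unadjusted p = 0.051, adjusted p = 0.31 in limma). Its 2 dimmer probes had log2 fold changes of 0.08 and 0.14. Tle3 gave 40.3, 46.9 and 40.1 in CKO, against 25.8, 71.8 and 43.9 in Ctrl cells (log2 fold change -0.03, SE 0.37, adjusted p = 1.0), while its 3 dimmer kept probes had 0.17, 0.62 and 0.13. Tle1 gave 20.8, 32.6 and 25.0 in CKO, against 19.8, 26.8 and 29.8 in Ctrl cells (log2 fold change 0.03, SE 0.27, adjusted p = 0.99). Tle3 is the only one of the 41 matched members with AGNGAAAG in its promoter window. The stretch around the match is shown with AGCGAAAG in capitals.
Tle3, chr9:61372149-61372216, plus strand: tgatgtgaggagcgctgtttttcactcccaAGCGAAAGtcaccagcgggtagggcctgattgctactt
A match of letters is a description of the window and not a binding site.

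**Figure D4:**
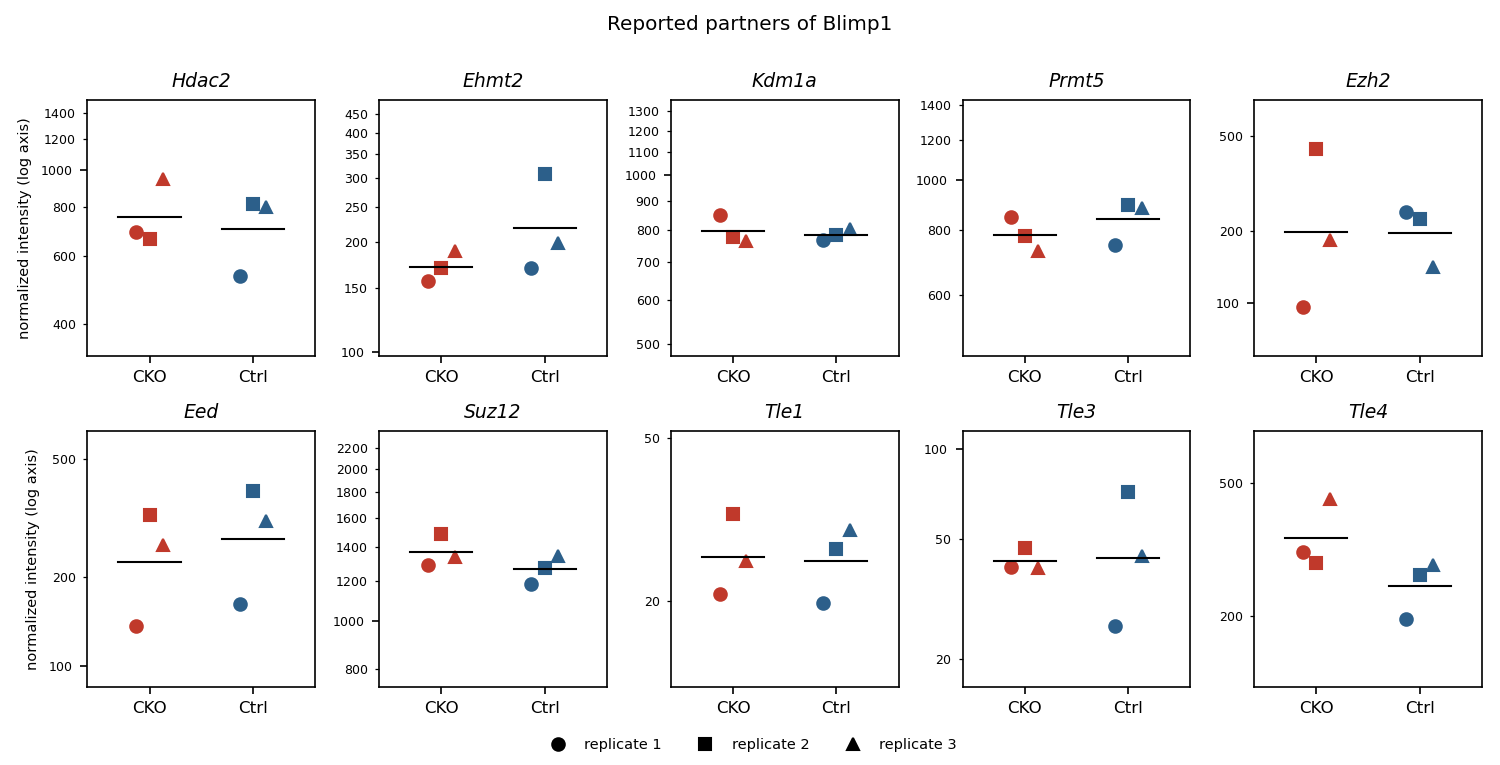
Normalized intensity (log axis) of the 10 measured members described as partners of Blimp1, in 3 CKO arrays (red) and 3 Ctrl arrays (blue), with the symbol for the replicate and a line for the geometric mean. On the probe shown for each gene, the genotypes overlap in all but Tle4.

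Of the 11 members described as partners of Blimp1 in other cells, 10 were measured and 0 met the study thresholds in either direction, beside 7.42% of all genes, a share that gives under 1 call in 10 genes. On the brightest probe of each, their median log2 fold change was 0.02, and the values lay between -0.35 in Ehmt2 and 0.48 in Tle4. Other kept probes lay outside this range, at -0.58 in Ehmt2, 0.67 in Prmt5 and 0.62 in Tle3. With the brightest probe, the 95% intervals of Hdac2, Kdm1a, Prmt5 and Suz12 reached no further than -0.59 and 0.73. Those of Ezh2, Eed and Tle3 reached at least -0.88 downward and 0.72 upward. The intervals were -0.99 to 0.28 for Ehmt2, -0.14 to 1.10 for Tle4 and -0.59 to 0.66 for Tle1. In 13 members the replicates of 1 genotype spanned over 1 log2 unit, and 19 members had at least 2 kept probes, whose log2 fold changes lay on one side of 0 in 12 and on both sides in 7. Probes that differ may read different transcripts or hybridize differently, which was not tested.

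Genes related to the members were measured too. Of 60 further enzymes of the same classes, 51 were tested, and 1 was lower and 2 were higher at the study thresholds, beside 4.34% and 3.09% of all genes, with a median log2 fold change of 0.08. Riox2, grouped here with the further demethylases, gave 730, 851 and 823 in CKO, against 407, 582 and 579 in Ctrl cells. Tdg, the glycosylase that removes the products of TET enzymes, gave 259, 217 and 200.1 in CKO, against 190.2, 114 and 107 in Ctrl cells. Tle5, a short Groucho family member that counters the long ones, gave 84.6, 84.2 and 82.6 in CKO, against 178, 167 and 101 in Ctrl cells.

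Of 58 subunits and partners of these complexes, 45 were tested, and 2 were lower and 0 higher at the study thresholds, near the shares of all genes. Mta3, a NuRD subunit known as a corepressor of Bcl6 in B cells, gave 216, 173 and 176 in CKO, against 377, 366 and 399 in Ctrl cells. Its log2 fold change of -1.02 was the largest among these genes (SE 0.21, adjusted p = 0.15 in limma, 0.052 with the replicate block). Atf7ip, a partner of Setdb1, gave 83.9, 130 and 159 in CKO, against 165, 201 and 311 in Ctrl cells, and was lower within each pair.

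Markers of cell types, of cell division and of early activation were summed on each array, and no gene of these lists passed an adjusted p of 0.05 in limma. In bulk RNA, fewer cells of a type and less RNA per cell cannot be told apart. The summed level of 9 measured CD4 T and Treg cell markers was 14979, 15551 and 12386 in CKO, against 27246, 23438 and 21561 in Ctrl cells. Of the 9, 8 had a log2 fold change below 0, beside 4567 of all 9593 genes. At the study thresholds 3 were lower, beside 4.34% of all genes. The largest part of the difference was Ctla4, with 3581, 3845 and 2621 in CKO, against 8549, 7043 and 6201 in Ctrl cells. Tnfrsf18 gave 1555, 1574 and 1597 in CKO, against 4378, 4547 and 2527 in Ctrl cells. Ikzf2 gave 187, 490 and 181 in CKO, against 792, 834 and 511 in Ctrl cells. Cd3e, Cd3g and Il2ra were lower in CKO cells in every pair, and Cd3d and Cd4 in replicates 1 and 3 only. Cd3d gave 3509, 4505 and 2561 in CKO, against 3899, 4397 and 4700 in Ctrl cells, and the log2 fold change of Foxp3 was 0.03. The sum of 8 myeloid markers was 12706, 1789 and 22734 in CKO, against 23383, 2532 and 32694 in Ctrl cells, a sum carried by S100a8 and S100a9, although the sort had kept Foxp3-GFP+ T cells. In replicate 2 the median log2 difference of the 6 myeloid markers tested was 0.24, against -1.04 and -0.60 in replicates 1 and 3. Of the 8 myeloid markers, Adgre1 and Itgam were above background on no array and were not tested. Sums of 3 B cell markers lay between 13.1 and 20.9, and Cd8a was below background on all arrays, while Cd8b1 gave 544, 625 and 934 in CKO, against 656, 809 and 1031 in Ctrl cells. The 2 erythroid markers with a named probe summed to 744, 563 and 1635 in CKO, against 1294, 539 and 1899 in Ctrl cells. Nearly all of this was Hba-a1, with 733, 557 and 1629 in CKO, against 1277, 531 and 1858 in Ctrl cells. Cell division genes, whose sums had no common direction over the pairs, came to 6293, 6566 and 14736 in CKO, against 7594, 6569 and 11056 in Ctrl cells. The 12 early activation genes, Ifng and Il2 among them, summed to 48027.5, 44602.7 and 33570.5 in CKO, against 44528.8, 28543.2 and 52683 in Ctrl cells. In CKO replicate 1, whose name lacks P+I, Ifng alone gave 24440 and Il2 8597, while Nr4a1 was above background on no array. None of the arrays is known to be unstimulated, so these sums have no level to be called high or low against. The array methods name no stimulation, while the paper uses PMA and ionomycin in other experiments. Stimulation of these samples was not tested. The part of these marker genes in the values of Hdac5, Hdac7, Kmt2a, Kdm5c and Ep300 was not tested.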

How the data were processed

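RNA of 3 CKO and 3 Ctrl pTreg samples was measured on Illumina MouseWG 6v2 arrays, and the genotype label of an array gave its group. The deposited table holds linear intensity values, exported by the authors with Genome Studio and quantile normalized. Values below 0 (35.4% to 36.0% of each array) show that background had been subtracted. Column medians were 2.84 on the slide of replicate 1 and 2.64 to 2.65 on the slide of replicates 2 and 3. The slides may have been normalized apart, which the methods do not state. All 45281 probes were therefore quantile normalized again over the 6 arrays, raised to each array's background and taken to log2. The detection p-values of the methods are not used here. A single gene symbol was found for 34885 probes, several for 18 and none for 10378. A probe was kept if above background on at least 2 arrays, as 17294 were (14811 with 1 symbol), and per array 32.3% to 38.3% of probes were. For 34807 probes the symbol was checked by gene identifier against RefSeq (GRCm38.p6). The brightest probe of each gene was tested with limma 3.58.1 in R 4.3.3 (lmFit and eBayes, two-sided, Benjamini-Hochberg), with no block, as the methods name none. Rose and fell are kept for an adjusted p under 0.05. Replicate numbers were taken to pair the arrays, because CKO and Ctrl samples of replicates 2 and of 3 are labelled with one day each, those of replicate 1 lie on one slide, and deviations from the group means correlated at 0.51, 0.49 and 0.56 over genes, which are not independent.

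The members, classes and other gene lists were chosen with earlier results of these data known. All 46 members are named. Values on every array with the fold change, SE and adjusted p are given for members past the study thresholds and for reported partners of Blimp1, and the others more briefly. Outside the members, Prdm1, Il10 and Foxp3 serve as checks, and further enzymes and complex subunits are named where they met the study thresholds. Values in full for Ehmt1, Ep300, Crebbp, Dnmt3b and Kdm6a, and those of Xist and Eif2s3y, were chosen after they were seen. Alternatives were the replicate or slide block, no new normalization, median scaling, other background levels, an offset in place of the floor, other filters, the mean of the probes of a gene, an intensity trend, and leaving out each array. The fits that left out an array had no block, so they did not use the pairing.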

Additional observations from a re-analysis of the deposited data

How the results depend on the processing

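No member passed an adjusted p of 0.05 under any of the 17 alternatives, 11 of which kept all 6 arrays. The number of members at the study thresholds, 4 as reported, lay between 3 and 5 with all arrays and between 2 and 4 when single arrays were left out (2 without CKO replicate 1, CKO replicate 3 or Ctrl replicate 2). The members' median log2 fold change of 0.01 lay between 0.01 and 0.03 with all arrays and between -0.10 and 0.019 without single arrays. Over all genes, 26 passed an adjusted p as reported, 183 with the replicate block, 16 with the slide block, 42 with an offset of 16 and no floor, 150 with no filter on dim probes, and 1 to 14 without single arrays (14 without Ctrl replicate 2, 3 without CKO replicate 3 and 1 without each of the others). At the study thresholds 712 genes were counted, 1154 with the replicate block and 1032 with no filter. Beyond Ehmt1, the replicate block changed no call of a member at the study thresholds.

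Of 640 values of single members under the alternatives, 603 kept their direction and 37, in 19 members, did not. With the mean of the probes of a gene, the log2 fold change was -0.14 for Ezh2, 0.16 for Setd2, 0.26 for Prmt5, -0.15 for Kdm6b and 0.22 for Tle3. For Hdac6 it was -0.0014 with background at the 99th percentile and -0.0058 with an offset of 16. Without single arrays the log2 fold change lay between -0.16 and 0.43 for Carm1, -0.37 and 0.21 for Dnmt1, -0.63 and 0.094 for Eed, -0.51 and 0.018 for Ezh1, -0.57 and 0.53 for Ezh2, -0.10 and 0.21 for Hdac2, -0.19 and 0.30 for Hdac6, -0.061 and 0.34 for Kat2a, -0.026 and 0.052 for Kdm1a, -0.14 and 0.25 for Kdm4a, -0.19 and 0.89 for Kdm5a, -0.51 and 0.028 for Kdm6a, -0.40 and 0.50 for Kdm6b, -0.16 and 0.23 for Sirt1, -0.16 and 0.00082 for Tet3, -0.14 and 0.19 for Tle1, and -0.41 and 0.33 for Tle3. Apart from the alternatives' own construction, the cause was not tested. Kdm5c had a log2 fold change of -0.35 with background at the 99th percentile and -1.27 at the 90th, so its size follows the floor. Hdac5 missed the study thresholds with the offset (-0.47) and with the intensity trend (unadjusted p = 0.071), and Kdm5c missed them with the slide block (unadjusted p = 0.057). Ehmt1 met them with the slide block (unadjusted p = 0.046) and with no filter on dim probes (unadjusted p = 0.021), and its log2 fold change was 0.59 with background at the 99th percentile and 0.52 with the offset.

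Signal over background limits what can be said of Ezh1, Hdac6, Kdm4a, Kdm5a, Kdm5c, Ehmt1, Crebbp, Tet3 and the 5 members not above background on 2 arrays, and 3 arrays per genotype limit the rest.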
